A study of Mus musculus with 12 samples.

Results

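The 10 genes described here encode a granule enzyme and a secreted bactericidal enzyme (Mpo, Lyz2), receptors for the colony-stimulating factors (Csf1r, Csf3r, Csf2rb), a lysosomal and a surface glycoprotein of macrophages (Cd68, Adgre1) and a pattern receptor with 2 signalling adaptors (Clec7a, Tyrobp, Fcer1g). They were taken by name from the 35976 gene names in the files, and all 10 were found. All 10 were among the 13316 genes tested, those with at least 1 FPKM (fragments scaled by transcript length and sequencing yield) in at least 2 of the 12 libraries. Adgre1 entered the test only through hematopoietic progenitors, where 2 libraries reached 1.79 and 1.35 FPKM, and it was listed at 0 in 6 libraries.

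The cells came from A2lox.cre mouse embryonic stem cells carrying a doxycycline-inducible RUNX1-EVI1 construct, the fusion of a blood transcription factor with the zinc finger protein EVI1 found in human leukaemia. FLK1-positive cells from embryoid bodies were grown in a blood-forming culture with VEGF and IL-6, and the sort gave 3 populations, HE1 and HE2 (labelled hemogenic endothelial 1 and 2) and HP (labelled as blood progenitors). PlusDox cells received 0.5 µg/ml doxycycline for 18 hours and NoDox cells none, which gave the groups PlusDox HE1, NoDox HE1, PlusDox HE2, NoDox HE2, PlusDox HP and NoDox HP with 2 biological replicates each. Both arms carry the construct, and doxycycline alone and the fusion cannot be told apart with these groups. The labels speak of single colonies that were expanded and do not give the number of clones used or the sort gates.

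Myeloid cells carry a recognisable kit of proteins. Neutrophil and monocyte precursors pack myeloperoxidase into granules, and their survival and growth depend on cytokines of the colony-stimulating factor group. Macrophages and their relatives recognise microbes with receptors that signal through an immunoreceptor tyrosine-based activation motif (ITAM), carried by the small membrane adaptors Tyrobp (DAP12) and Fcer1g (the Fc receptor gamma chain). A phosphorylated ITAM recruits the kinase Syk. In the embryo, the first blood cells leave hemogenic endothelium and switch on such genes while endothelial genes are switched off, and RUNX1 and the ETS factor PU.1, the product of Spi1, are known regulators of this change.

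Endothelial markers set the HP libraries apart from the others, and HE1 and HE2 lay closer together. Within each arm both HE2 sums were below both HE1 sums, in PlusDox cells only narrowly. From HE1 to HE2, 3 of 8 markers (Tek, Esam, Pecam1) were called lower in the NoDox arm and 0 in the PlusDox arm. Of all genes tested, 4.45% and 2.89% were called lower at this step in these arms. The summed FPKM of 8 endothelial markers was 394 and 297 in PlusDox HP and 186 and 163 in NoDox HP. It was 1660 and 1589 in PlusDox HE2, 874 and 1309 in NoDox HE2, 1932 and 1662 in PlusDox HE1 and 1534 and 2090 in NoDox HE1. All 8 were called lower at the step from HE2 to HP in both arms, as were 10.9% (PlusDox) and 10.6% (NoDox) of all genes. Mecom, the gene that encodes EVI1, read 5.18 and 5.51 FPKM in PlusDox HP and 0.194 and 0.205 FPKM in NoDox HP. In HE2 it read 18.4 and 20.2 FPKM with and 6.08 and 13.9 FPKM without doxycycline, and in HE1 the arms overlapped, with 23.0 and 18.1 FPKM in PlusDox and 17.0 and 28.3 FPKM in NoDox cells. Reads of the cells' own Mecom and of the fusion cannot be told apart in these values. Library sums ran from 468326 to 579055 FPKM, 11461 to 12174 genes reached 1 FPKM, and the files give no read counts, so the depth is unknown and no counting interval can be given. In 5 libraries the level of Lars2 was 10223 to 19970 FPKM, while the other 7 had 24.0 to 224 FPKM. These 5 comprised all PlusDox libraries numbered 2, together with replicate 1 of NoDox HE1 and replicate 2 of NoDox HP. HE2 therefore had a Lars2-high library only in the PlusDox arm, and for HE2 the comparison within the Lars2-low libraries sets PlusDox replicate 1 against both NoDox replicates.

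In HE2, 5 of the 10 genes were called with doxycycline, in both directions. Mpo and Csf3r, best known from granulocytes and their precursors, were lower in PlusDox HE2, while Tyrobp, Clec7a and Cd68 were higher. Of the 10 genes, 3 were called higher and 2 lower (limma on log2(FPKM + 1), Benjamini-Hochberg adjusted p below 0.05), where 3.82% of all genes tested were called higher and 2.24% lower. In HE1 1 of the 10, Cd68, was called higher and 0 lower, with 0.961% of all genes called higher and 0.406% lower. In HP 0 of the 10 were called in either direction, with 0.601% of all genes higher and 0.233% lower, although 5 of the 10 had an unadjusted limma p below 0.05, as did 9.39% of all genes. Without Adgre1, at or near 0 in HE1 and HE2, the median log2 fold change of the other 9 genes was 0.66 in HE2. In HP it was 0.48 and in HE1 −0.13. With Adgre1 these medians were 0.36, 0.45 and −0.08, against −0.05, 0 and −0.07 over all genes tested.

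**Figure D1:**
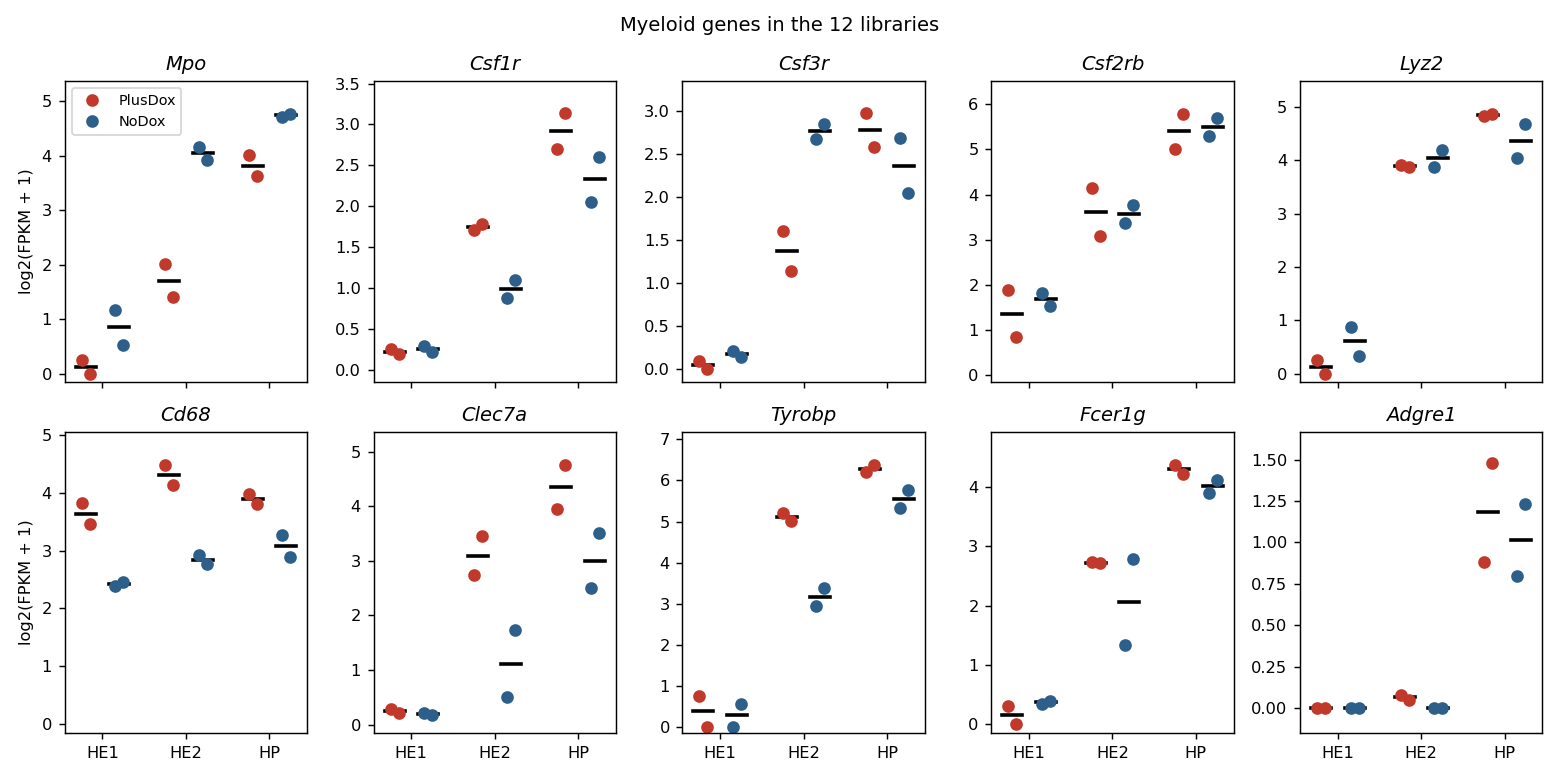
The y axis of each panel gives log2(FPKM + 1) of 1 gene, with 1 point per library, PlusDox in red left of NoDox in blue, and black bars at the group means. In HE2 both PlusDox points of Mpo and Csf3r lie below the NoDox points, and those of Cd68, Clec7a and Tyrobp lie above them.

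Promoter sequences are shown for the 4 genes called in HE2 that have an entry in the RefSeq table for GRCm38.p6 (build mm10), since these genes moved in opposite directions. Each runs from 250 bases before to 50 bases after a start site of the table, 5′ to 3′ along the gene's strand, and capitals mark the letters GAGGAA, a core often bound by PU.1, or the same letters on the other strand, TTCCTC. Mpo (chr11:87793534-87793833, plus strand) and Csf3r (chr4:126024409-126024708, plus strand) were lower in PlusDox HE2, and Cd68 (chr11:69666121-69666420, minus strand) and Clec7a (chr6:129472736-129473035, minus strand) were higher. For Csf3r the table's start lies 1218 bases inside the annotated gene, so its window is not the one at the gene's outer end, and for Clec7a, which has a second start 6 bases further in, the window at the outer end is shown.
Mpo: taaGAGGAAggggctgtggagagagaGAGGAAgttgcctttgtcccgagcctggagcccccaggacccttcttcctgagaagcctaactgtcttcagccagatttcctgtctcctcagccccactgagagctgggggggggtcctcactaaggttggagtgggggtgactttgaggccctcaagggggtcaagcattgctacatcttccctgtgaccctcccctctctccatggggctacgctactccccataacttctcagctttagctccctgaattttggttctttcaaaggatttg
Csf3r: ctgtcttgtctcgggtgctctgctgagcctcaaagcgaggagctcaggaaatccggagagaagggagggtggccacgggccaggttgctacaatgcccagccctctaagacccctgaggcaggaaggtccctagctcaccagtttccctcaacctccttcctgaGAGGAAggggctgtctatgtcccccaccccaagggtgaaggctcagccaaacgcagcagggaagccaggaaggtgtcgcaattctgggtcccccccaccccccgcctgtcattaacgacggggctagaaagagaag
Cd68: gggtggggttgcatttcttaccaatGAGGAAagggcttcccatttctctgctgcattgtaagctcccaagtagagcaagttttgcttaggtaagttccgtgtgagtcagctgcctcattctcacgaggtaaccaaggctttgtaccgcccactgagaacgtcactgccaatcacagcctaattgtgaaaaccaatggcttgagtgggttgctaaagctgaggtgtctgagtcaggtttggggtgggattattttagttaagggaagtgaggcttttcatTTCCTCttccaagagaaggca
Clec7a: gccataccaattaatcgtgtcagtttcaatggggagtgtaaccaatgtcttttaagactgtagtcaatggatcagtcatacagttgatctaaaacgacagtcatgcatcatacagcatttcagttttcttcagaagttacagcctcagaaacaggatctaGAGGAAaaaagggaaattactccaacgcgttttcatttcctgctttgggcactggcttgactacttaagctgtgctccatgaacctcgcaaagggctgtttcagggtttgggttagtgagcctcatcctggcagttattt

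The letters GAGGAA began at −247 and −224 from the start of Mpo, at −86 in Csf3r and at −90 in Clec7a, and in Cd68 at −225 and, on the other strand, at +30. So both the genes that were lower and those that were higher in PlusDox HE2 held them. Of all 32851 promoters of this length in the table, 28.3% held the letters on either strand. Cores known for 3 other factors were searched on both strands and found in none of the 4. For the RUNX family the letters were TGTGGT, held by 16.8% of all promoters. The C/EBP core was searched as TTGCAA, held by 6.23%. For the GATA family the search used AGATAA, held by 11.2%. The RUNX letters were present in the promoters of Lyz2 (at −66, on the other strand) and Fcer1g (at +10), the other 2 of the 10 genes with an entry. These matches describe the letters of the windows and do not locate a bound site.

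Mpo encodes myeloperoxidase, the haem enzyme of primary granules that makes hypochlorous acid (mm10 chromosome 11, 87793784 to 87804412, plus strand). In HE2 it read 3.04 and 1.64 FPKM with doxycycline and 16.9 and 14.1 FPKM without. The groups were far apart, and the difference was the largest among the 10 genes in HE2 (log2 fold change −2.33 ± 0.27 SE, limma adjusted p = 0.000801). In HP, Mpo stood at 15.1 and 11.3 FPKM in PlusDox and 25.0 and 26.3 FPKM in NoDox cells, again without overlap, but the fold did not pass the test (−0.92 ± 0.27, adjusted p = 0.202). HE1 had hardly any Mpo, 0.196 and 0 FPKM in PlusDox and 1.26 and 0.433 FPKM in NoDox libraries (−0.72 ± 0.27, adjusted p = 0.347). PlusDox HE2 held less Mpo in both libraries than PlusDox HP or either NoDox population past HE1. The call in HE2 was kept without any 1 library, and within the Lars2-low libraries the levels were 3.04 FPKM with and 16.9 and 14.1 FPKM without doxycycline. The annotated antisense gene Gm11505 overlaps Mpo, and the strand setting of the quantification is not given in the sources used here.

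Lyz2 encodes lysozyme M, which cuts bacterial cell walls (chromosome 10, 117277541 to 117282272, minus strand). Its levels in HE2 were 14.1 and 13.7 FPKM with doxycycline and 13.7 and 17.4 FPKM without, so the 2 groups overlapped (−0.15 ± 0.25, limma adjusted p = 0.786). In HP it read 27.5 and 28.4 FPKM in PlusDox and 15.6 and 24.8 FPKM in NoDox cells (0.48 ± 0.25, adjusted p = 0.635), and in HE1 0.19 and 0 FPKM against 0.841 and 0.259 FPKM (−0.48 ± 0.25, adjusted p = 0.631). Lyz2 thus reached 13.7 FPKM or more in every HE2 library of both arms. Lyz1, a near-identical copy, was listed at 0 in all HE1 and HE2 libraries and at 0.544 FPKM or less in HP.

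Csf3r is the receptor for G-CSF, the cytokine that drives neutrophil production (chromosome 4, 126023441 to 126044975, plus strand). In HE2 it read 2.05 and 1.21 FPKM with doxycycline and 5.38 and 6.24 FPKM without, with no overlap (−1.39 ± 0.25, limma adjusted p = 0.00833). In HP the order was not the same, with 6.88 and 4.97 FPKM in PlusDox and 5.44 and 3.13 FPKM in NoDox cells, and the groups overlapped (0.41 ± 0.25, adjusted p = 0.758). HE1 libraries held at most 0.157 FPKM (0.0643 and 0 in PlusDox, 0.157 and 0.0998 in NoDox, −0.13 ± 0.25, adjusted p = 0.972). The effect of doxycycline in HP minus that in HE2 was 1.80 ± 0.36 for Csf3r, the largest such difference among the 10 genes, and did not pass the adjustment (limma adjusted p = 0.284). The HE2 call was lost without PlusDox HE2 replicate 2 (−1.16, adjusted p = 0.0867) and with no filter on low values (−1.39, adjusted p = 0.0515). Within the Lars2-low libraries the levels were 2.05 FPKM with and 5.38 and 6.24 FPKM without doxycycline.

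Csf1r is the receptor for CSF1 and IL-34, on which macrophages depend (chromosome 18, 61105572 to 61131139, plus strand). It stood at 2.28 and 2.43 FPKM in PlusDox HE2 and 0.84 and 1.13 FPKM in NoDox HE2. Both PlusDox libraries were above both NoDox libraries, yet the fold missed the threshold (0.76 ± 0.23, limma adjusted p = 0.0694). The same separation was seen in HP, 5.51 and 7.81 FPKM in PlusDox against 3.16 and 5.08 FPKM in NoDox cells (0.59 ± 0.23, adjusted p = 0.376). HE1 libraries held between 0.14 and 0.217 FPKM, and the 2 arms overlapped (−0.03 ± 0.23, adjusted p = 0.994). Its ligand Csf1 was abundant in the earliest cells and low in the latest, with 27.2 and 31.0 FPKM in PlusDox HE1, 11.3 and 14.6 FPKM in PlusDox HE2 and 2.70 and 4.74 FPKM in PlusDox HP.

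Csf2rb, the shared beta chain of the receptors for GM-CSF, IL-3 and IL-5, was the most abundant of the 3 cytokine receptors in every library (chromosome 15, 78325800 to 78351001, plus strand). It read 16.8 and 7.46 FPKM in PlusDox HE2 and 9.29 and 12.6 FPKM in NoDox HE2 (0.05 ± 0.40, limma adjusted p = 0.96). The HP groups read 31.1 and 54.4 FPKM with and 38.1 and 50.5 FPKM without doxycycline (−0.09 ± 0.40, adjusted p = 1), and the HE1 groups 2.67 and 0.798 FPKM with and 2.55 and 1.91 FPKM without (−0.32 ± 0.40, adjusted p = 0.947). The arms overlapped in all 3 populations, and the SE of Csf2rb was larger than that of the other 2 receptors (0.40 against 0.23 for Csf1r and 0.25 for Csf3r). Csf2rb2, a near-identical neighbour that serves as an IL-3 receptor chain in mice, read 2.20 to 3.29 FPKM over the 4 HE2 libraries, and reads shared by the 2 genes could have been split between them. The alpha chain of the GM-CSF receptor, Csf2ra, was called higher in PlusDox HE2, at 4.99 and 3.84 FPKM against 1.20 and 1.47 FPKM in NoDox HE2 (1.21 ± 0.27, adjusted p = 0.0248).

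Cd68 (macrosialin) is a heavily glycosylated protein of lysosomes, abundant in macrophages and present at lower levels in other cells (chromosome 11, 69664213 to 69666170, minus strand). It was the only one of the 10 genes called in HE1, with 13.1 and 10.0 FPKM in PlusDox and 4.23 and 4.51 FPKM in NoDox cells (1.21 ± 0.21, limma adjusted p = 0.0164). In HE2 it read 21.4 and 16.6 FPKM with and 6.55 and 5.80 FPKM without doxycycline (1.47 ± 0.21, adjusted p = 0.0024). In HP the levels were 14.8 and 13.0 FPKM in PlusDox and 8.66 and 6.41 FPKM in NoDox cells (0.81 ± 0.21, adjusted p = 0.121). Every PlusDox library of Cd68 lay above every NoDox library, the lowest PlusDox value being 10.0 FPKM and the highest NoDox value 8.66 FPKM. The HP fold was called under median scaling (0.83, adjusted p = 0.0203) and quantile normalization (0.78, adjusted p = 0.035). It was also called with a term for the replicate number (0.81, adjusted p = 0.028) or for the Lars2-high libraries (0.81, adjusted p = 0.0297). The HE1 call was lost without NoDox HE1 replicate 1 (1.18, adjusted p = 0.177), NoDox HE1 replicate 2 (1.25, adjusted p = 0.0722) or PlusDox HE1 replicate 1 (1.04, adjusted p = 0.121), while within HE1 the Lars2-low pair read 13.1 and 4.51 FPKM and the Lars2-high pair 10.0 and 4.23 FPKM, PlusDox first in each.

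Adgre1 encodes F4/80, the adhesion receptor by which mouse macrophages are commonly recognised (chromosome 17, 57358581 to 57483529, plus strand). It was listed at 0 in all 4 HE1 libraries and in both NoDox HE2 libraries, and read 0.0559 and 0.0363 FPKM in PlusDox HE2. In HP it reached 0.843 and 1.79 FPKM with and 0.736 and 1.35 FPKM without doxycycline, and the arms overlapped (0.17 ± 0.22, limma adjusted p = 0.975). Adgre1 was the least abundant of the 10 genes in HE2 and HP.

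Tyrobp is the small adaptor DAP12, which pairs with receptors that have no signalling motif of their own (chromosome 7, 30413782 to 30417582, plus strand). In HE2 it read 35.8 and 31.5 FPKM with doxycycline and 6.67 and 9.42 FPKM without (1.95 ± 0.28, limma adjusted p = 0.0026). The groups stood far apart, and Tyrobp was the most abundant of the 10 genes in PlusDox HE2 at 33.6 ± 3.04 FPKM, against 8.04 ± 1.95 FPKM and rank 4 in NoDox HE2 (SD, n = 2 each). In HP both arms held more, 72.5 and 82.3 FPKM in PlusDox and 39.3 and 53.5 FPKM in NoDox cells, without overlap and without a call (0.74 ± 0.28, adjusted p = 0.38). In HE1, 2 of 4 libraries were listed at 0 and the others held 0.691 FPKM (PlusDox) and 0.465 FPKM (NoDox). The HE2 call was lost with a pseudocount of 0.1 (2.07, adjusted p = 0.189). Within the Lars2-low libraries, PlusDox HE2 read 35.8 FPKM and NoDox HE2 6.67 and 9.42 FPKM.

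Fcer1g, the common gamma chain of Fc receptors and the other ITAM adaptor of the set, did not follow Tyrobp in HE2 (chromosome 1, 171229572 to 171234349, minus strand). It read 5.68 and 5.55 FPKM in PlusDox and 1.53 and 5.91 FPKM in NoDox HE2 (0.66 ± 0.35, limma adjusted p = 0.299). NoDox HE2 replicate 2 lay above both PlusDox libraries, and without it the fold was 1.39 and was called (adjusted p = 0.00849). In HP the levels were 19.8 and 17.7 FPKM with and 14.0 and 16.4 FPKM without doxycycline (0.28 ± 0.35, adjusted p = 0.968), and in HE1 no library exceeded 0.316 FPKM.

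Clec7a (dectin-1) binds fungal beta-glucans and signals to Syk through a single-tyrosine form of the motif in its own tail (chromosome 6, 129461591 to 129472785, minus strand). It read 5.64 and 10.0 FPKM in PlusDox HE2 and 0.421 and 2.31 FPKM in NoDox HE2 (1.98 ± 0.43, limma adjusted p = 0.0205). The lowest PlusDox library was above the highest NoDox library, although the replicates of both groups lay apart. In HP it stood at 14.4 and 26.1 FPKM in PlusDox and 4.64 and 10.4 FPKM in NoDox cells (1.35 ± 0.43, adjusted p = 0.239), and in HE1 all 4 libraries held 0.135 to 0.22 FPKM. The HE2 call was lost without NoDox HE2 replicate 1 (1.37, adjusted p = 0.189), without PlusDox HE2 replicate 2 (1.61, adjusted p = 0.164) and with no filter on low values (1.98, adjusted p = 0.104). The Lars2-low libraries read 5.64 FPKM in PlusDox and 0.421 and 2.31 FPKM in NoDox HE2.

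**Figure D2:**
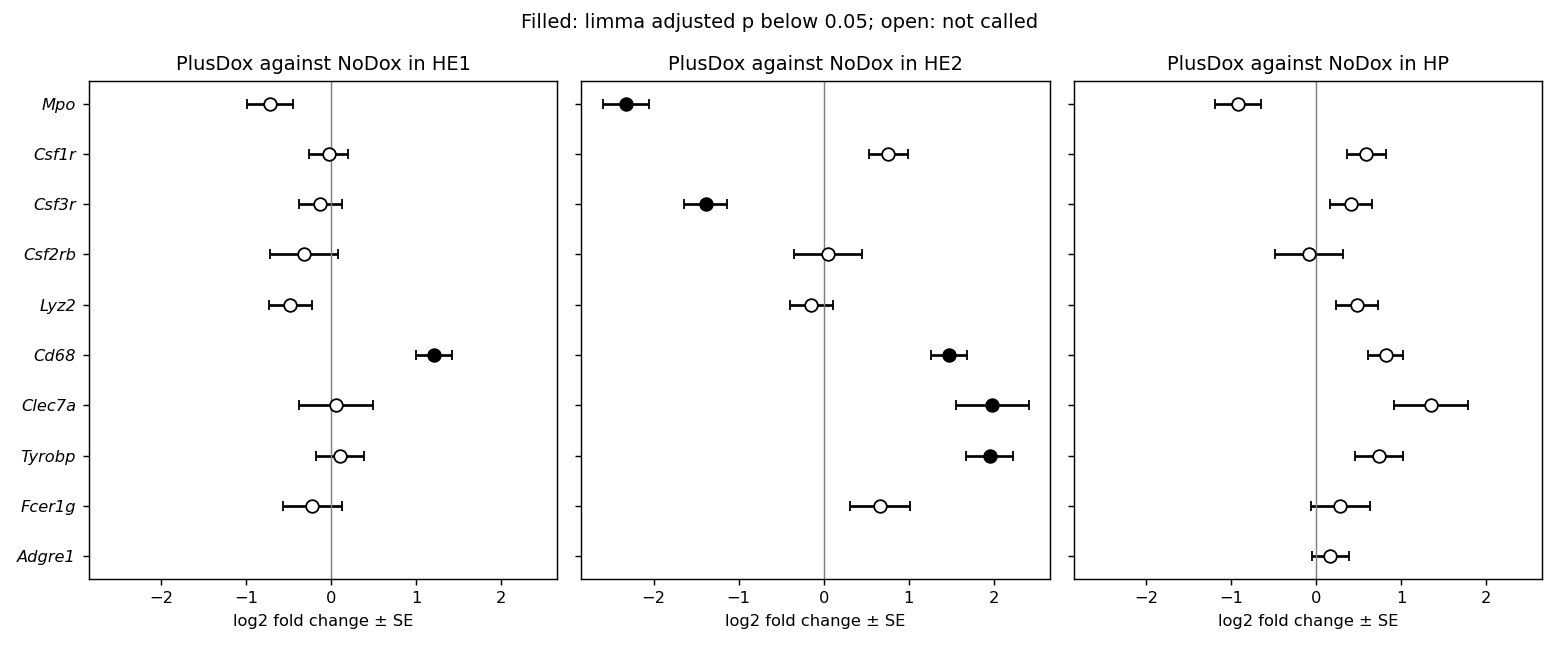
The x axis gives the log2 fold change of log2(FPKM + 1), PlusDox against NoDox, with its SE, for each gene (rows) in HE1, HE2 and HP. Filled points were called, and Adgre1 is left out where a group was listed at 0. The 5 filled points in HE2 run from −2.33 (Mpo) to 1.98 (Clec7a), the single filled point in HE1 is Cd68 at 1.21, and HP has none.

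Counted by library, without a test, both PlusDox libraries lay above both NoDox libraries for 2 of the 10 genes in HE1 (Cd68, Clec7a), 5 in HE2 (Csf1r, Cd68, Clec7a, Tyrobp, Adgre1) and 6 in HP (Csf1r, Lyz2, Cd68, Clec7a, Tyrobp, Fcer1g). Over all genes tested this held for 13.6% in HE1, 22.3% in HE2 and 20.5% in HP. The HE2 count includes Adgre1 at only 0.0559 and 0.0363 FPKM, against 0 in both NoDox libraries, a gene that entered the test only through HP. Both PlusDox libraries lay below both NoDox libraries for 4 genes in HE1 (Mpo, Csf3r, Lyz2, Fcer1g), 2 in HE2 (Mpo, Csf3r) and 1 in HP (Mpo), against 22.0%, 28.0% and 13.2% of all genes in the same order of populations. Mpo was thus the only gene of the 10 whose PlusDox libraries were the lower ones in all 3 populations. Cd68 and Clec7a were the only ones whose PlusDox libraries were the higher ones in all 3. In HE1 this rests on low values for Mpo (0.196 and 0 against 1.26 and 0.433 FPKM). The same holds for Clec7a (0.22 and 0.162 against 0.156 and 0.135 FPKM, log2 fold change 0.06 ± 0.43). The share of all genes separated in the same direction in all 3 populations was not counted. At 2 libraries per group such separations are frequent among all genes.

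The effects of doxycycline in HE2 and HE1, which share no library, were also compared with each other. The HE2 effect minus the HE1 effect was called for 0 of the 10 genes in either direction, with 0.0375% of all genes called higher and 0.00751% lower. The differences were −1.61 ± 0.38 for Mpo (limma adjusted p = 0.268), 1.85 ± 0.40 for Tyrobp (adjusted p = 0.197), 1.92 ± 0.61 for Clec7a (adjusted p = 0.446) and −1.26 ± 0.36 for Csf3r (adjusted p = 0.372), and 5 of the 10 had an unadjusted p below 0.05, as did 6.7% of all genes. The HP effect minus the HE2 effect was likewise called for 0 of the 10, with 0.00751% of all genes higher and 0.00751% lower, and 4 of the 10 had an unadjusted p below 0.05, as did 6.57% of all genes. It was 1.42 ± 0.38 for Mpo (adjusted p = 0.414) and −1.21 ± 0.40 for Tyrobp (adjusted p = 0.554). In this fit, which has no term for the replicate number, no such difference passed the adjustment for the 10 genes.

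Summed over the 10 genes, the levels were 17.5 and 11.1 FPKM in PlusDox HE1, 9.68 and 8.29 FPKM in NoDox HE1, 107 and 90.1 FPKM in PlusDox HE2, 61.3 and 75.0 FPKM in NoDox HE2, 208 and 248 FPKM in PlusDox HP and 155 and 198 FPKM in NoDox HP. The shares of single genes in this sum also differed between the arms. Mpo made up 2.84% and 1.82% of it in PlusDox HE2 and 27.6% and 18.8% in NoDox HE2, and Csf3r 1.92% and 1.34% against 8.77% and 8.33%. Tyrobp made up 33.5% and 34.9% in PlusDox HE2 and 10.9% and 12.6% in NoDox HE2. In HP the Tyrobp shares were 34.8% and 33.2% in PlusDox and 25.4% and 27.1% in NoDox cells, and the Mpo shares 7.26% and 4.58% against 16.2% and 13.3%. The ratio of Tyrobp to Mpo was 11.8 and 19.1 in PlusDox HE2 and 0.394 and 0.667 in NoDox HE2. In PlusDox HP it was 4.79 and 7.26, against 1.57 and 2.03 in NoDox HP. In bulk samples such as these, fewer cells of a type and less RNA per cell cannot be told apart.

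**Figure D3:**
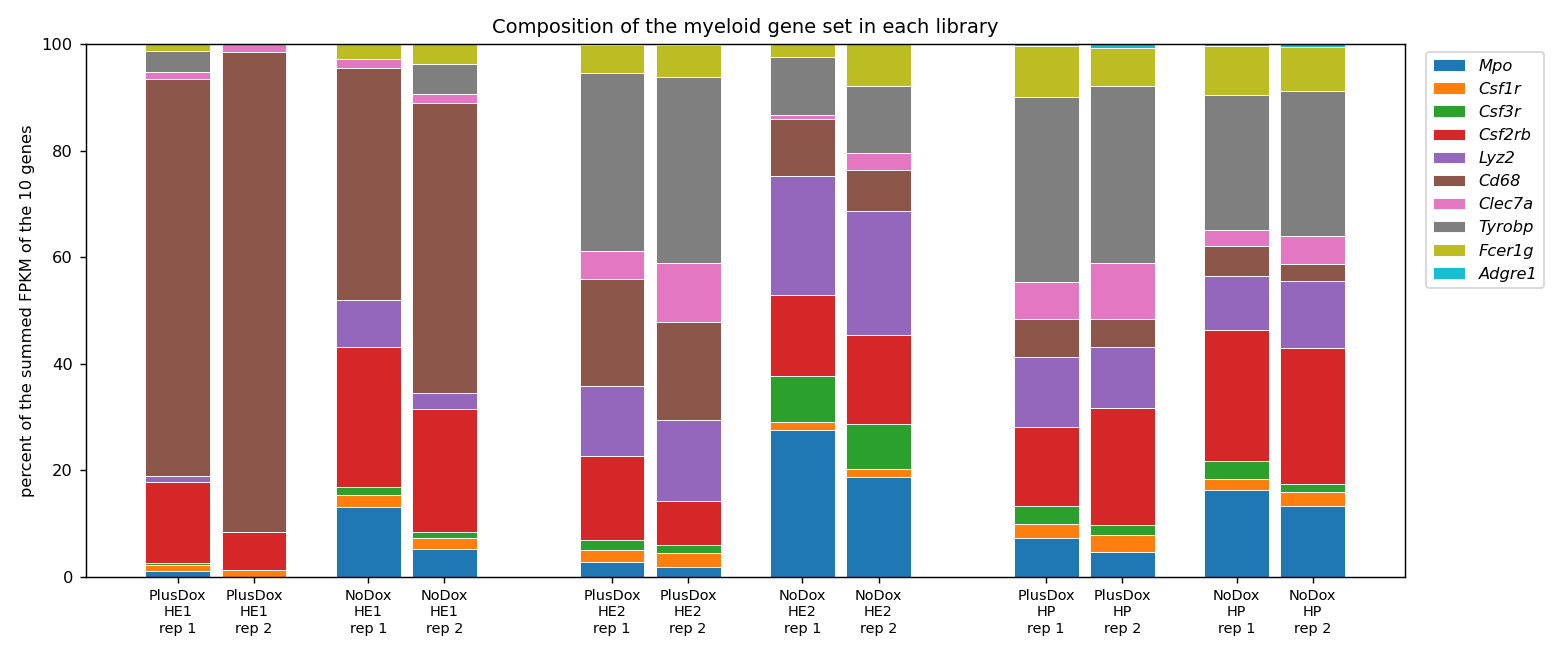
Stacked bars give each gene's percent of the summed FPKM of the 10 genes in each of the 12 libraries, PlusDox left of NoDox within each population. In HE1 Cd68 fills 74.6% and 90.1% of the PlusDox bars and 43.7% and 54.4% of the NoDox bars. In HE2 the Mpo segment is thin in the PlusDox bars and wide in the NoDox bars, and the Tyrobp segment the reverse.

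Ranked by mean FPKM, Cd68 and Csf2rb led in both arms of HE1. In PlusDox HE2 the order was Tyrobp (33.6 FPKM), Cd68 (19.0), Lyz2 (13.9) and Csf2rb (12.1), and the last 2 did not differ beyond their replicate spread. In NoDox HE2 it was Lyz2 (15.6), Mpo (15.5), Csf2rb (11.0) and Tyrobp (8.04), where the first 2 had overlapping libraries and both Csf2rb libraries lay below those of Lyz2 and Mpo. Mpo was eighth of the 10 in PlusDox HE2, beside Csf1r at 2.35 FPKM. In PlusDox HP the leading genes were Tyrobp (77.4), Csf2rb (42.8), Lyz2 (28.0) and Clec7a (20.3), and in NoDox HP Tyrobp (46.4) and Csf2rb (44.3), which overlapped, followed by Mpo (25.7) and Lyz2 (20.2).

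Along the sorted populations, most of the 10 genes were higher at each later stage. At the step from HE1 to HE2, 8 of the 10 were called higher and 0 lower in the PlusDox arm (HE2 against HE1, limma), with 5.7% of all genes higher and 2.89% lower. In the NoDox arm 6 of the 10 were higher and 0 lower, with 5.67% of all genes higher and 4.45% lower. Tyrobp was at 4.73 ± 0.28 on the log2 scale in PlusDox and 2.88 ± 0.28 in NoDox cells (adjusted p = 6.51e-06 and 0.000196), and Lyz2 at 3.77 ± 0.25 and 3.43 ± 0.25 (1.26e-05 and 2.28e-05). Mpo was at 1.58 ± 0.27 in PlusDox and 3.19 ± 0.27 in NoDox cells (0.0044 and 6.2e-05), and Csf3r at 1.33 ± 0.25 and 2.59 ± 0.25 (0.00741 and 0.000188). Clec7a and Csf1r were called in the PlusDox arm (2.85 ± 0.43 and 1.52 ± 0.23, adjusted p = 0.0021 and 0.00192) and missed the threshold in the NoDox arm (0.92 ± 0.43 and 0.73 ± 0.23, adjusted p = 0.186 and 0.0612). Cd68 was called in neither arm (0.67 ± 0.21 in PlusDox and 0.42 ± 0.21 in NoDox cells, adjusted p = 0.0711 and 0.218), though it passed in PlusDox under median scaling (0.46, 0.0428) and quantile normalization (0.55, 0.0257). The median over the 9 genes without Adgre1 was 2.26 in the PlusDox and 1.88 in the NoDox arm (1.92 and 1.79 with it). Over all genes it was 0.17 and 0.16, a shift that median scaling brought to −0.02 in both.

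Some of these step calls were lost when 1 library was left out, in some cases with little change of the fold. In the PlusDox arm, Mpo was not called without PlusDox HE2 replicate 1 (1.27, adjusted p = 0.0505). Csf3r was lost without PlusDox HE1 replicate 2 (1.29, 0.0517) or PlusDox HE2 replicate 1 (1.10, 0.0809), and Csf2rb without the same libraries (1.74, 0.0527 and 1.72, 0.0525). In the NoDox arm, Csf2rb (1.88 ± 0.40, adjusted p = 0.0137) was lost without NoDox HE1 replicate 2 (1.74, 0.123), NoDox HE2 replicate 1 (2.08, 0.0517) or NoDox HE2 replicate 2 (1.68, 0.0518). Fcer1g (1.69 ± 0.35, adjusted p = 0.012) was lost without NoDox HE1 replicate 1 (1.67, 0.0561) or replicate 2 (1.72, 0.0865).

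The step from HE2 to HP is counted without Adgre1, which entered the test only through HP. Of the other 9 genes, 7 were called higher and 0 lower in the PlusDox arm (HP against HE2), with 5.96% of all genes higher and 10.9% lower, and 5 of the 9 were higher and 0 lower in the NoDox arm, with 5.31% of all genes higher and 10.6% lower. Mpo was at 2.11 ± 0.27 in PlusDox cells (limma adjusted p = 0.000255) and at 0.69 ± 0.27 without a call in NoDox cells (adjusted p = 0.114), and Csf3r at 1.40 ± 0.25 (0.00227) and −0.40 ± 0.25 (0.35). The 2 genes that were lower in PlusDox HE2 were therefore called at the later step in the PlusDox arm alone, a contrast between arms that is the same quantity as the difference of doxycycline effects given above and was not called. Tyrobp was at 1.18 ± 0.28 in PlusDox and 2.39 ± 0.28 in NoDox cells (0.0133 and 0.000134), Fcer1g at 1.57 ± 0.35 and 1.95 ± 0.35 (0.00869 and 0.00226), Csf2rb at 1.78 ± 0.40 and 1.92 ± 0.40 (0.00908 and 0.00584), and Csf1r at 1.18 ± 0.23 and 1.35 ± 0.23 (0.00353 and 0.00139). Clec7a was called in the NoDox arm (1.88 ± 0.43, 0.00988) and missed the threshold in the PlusDox arm (1.26 ± 0.43, 0.0678), and Cd68 was called in neither (−0.42 ± 0.21 and 0.24 ± 0.21, 0.219 and 0.523). The median of the 9 genes was 1.26 in PlusDox and 1.35 in NoDox cells, against −0.01 and −0.06 over all genes.

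At this step Lyz2 was called in the PlusDox arm (0.96 ± 0.25, limma adjusted p = 0.0205). The call was lost without either PlusDox HE2 replicate (0.98 and 0.94) or either PlusDox HP replicate (0.98 and 0.94). The Lyz2 fold hardly moved, so this loss was not tied to a single deviating library. Leaving out PlusDox HE2 replicate 2 or PlusDox HP replicate 2 ended the PlusDox calls of Tyrobp (1.09 in both, 0.0827 and 0.0869) and Csf2rb (1.25, 0.0915 and 1.39, 0.0913). Leaving out PlusDox HP replicate 1 ended that of Fcer1g (1.49, 0.0525). In the NoDox arm, Clec7a was lost without NoDox HE2 replicate 1 (1.27, 0.0882) or NoDox HP replicate 2 (1.38, 0.12), and Csf2rb without NoDox HP replicate 2 (1.72, 0.0637).

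**Figure D4:**
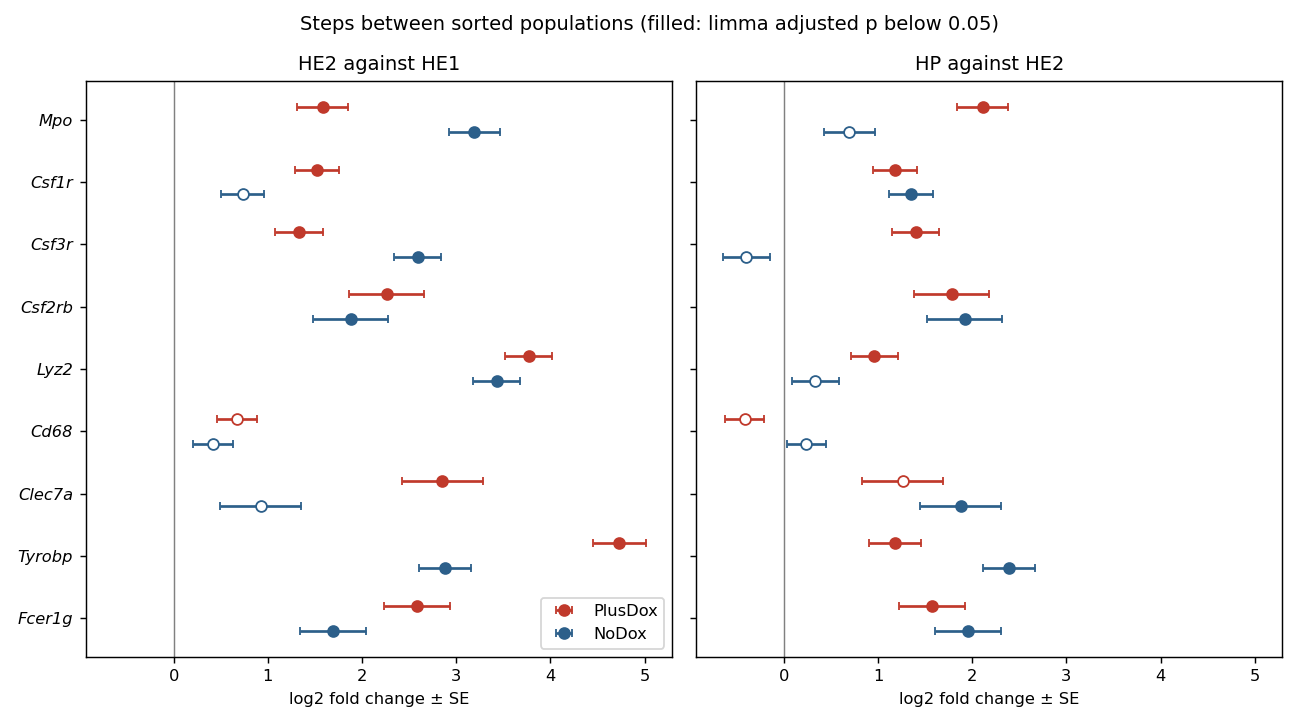
The x axis gives the log2 fold change of log2(FPKM + 1) with its SE for HE2 against HE1 (left) and HP against HE2 (right), with PlusDox in red above NoDox in blue and filled points for calls. On the left the Mpo and Csf3r points lie further left in PlusDox (1.58 and 1.33) than in NoDox cells (3.19 and 2.59), and on the right it is the PlusDox points of these genes that lie further right (2.11 and 1.40, against 0.69 and −0.40 in NoDox cells). Adgre1 is left out.

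The wider pathways were described with 5 lists, the 10 genes left out. In HE2, 7 of their 51 tested genes were called higher with doxycycline and 1 lower, 15.7% in all against 6.06% of all genes tested. They comprised 0 of 5 granule protein genes, 2 of 11 genes of the colony-stimulating factor ligands and receptors, 3 of 18 ITAM receptor and signalling genes, 1 of 11 macrophage and phagocyte genes and 2 of 6 myeloid transcription factors. Among them Spi1, which encodes PU.1, was higher at 71.9 and 55.4 FPKM in PlusDox against 25.3 and 23.5 FPKM in NoDox HE2 (1.34 ± 0.27, limma adjusted p = 0.0154). Cebpa, a granulocyte and monocyte factor, was higher but low in both arms (1.50 and 1.20 against 0.243 and 0.513 FPKM, 0.78 ± 0.20, adjusted p = 0.0417). In HE1 and HP 0 of the 51 were called by limma with doxycycline. An unadjusted p below 0.05 was found for 7 of the 51 in HE1 (13.7%, against 9.59% of all genes), 9 in HP (17.6%, against 9.39%) and 12 in HE2 (23.5%, against 22.3%), 0 of these 12 being granule genes. The list medians in HE2 lay between −0.01 and 0.24, against −0.05 for all genes.

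The ITAM list moved in both directions. Fcgr3, an Fc receptor that needs the Fcer1g chain at the surface, was lower in PlusDox HE2 at 2.49 and 1.52 FPKM, against 3.82 and 6.70 FPKM in NoDox HE2 (−1.04 ± 0.26, limma adjusted p = 0.0362). The tyrosine phosphatase Ptpn6 (SHP-1), which dampens ITAM signals, was higher at 83.7 and 56.5 FPKM against 28.4 and 31.5 FPKM (1.17 ± 0.31, adjusted p = 0.0441), as was the Src-family kinase Fgr at 1.27 and 1.60 FPKM against 0.219 and 0.49 FPKM (0.85 ± 0.20, adjusted p = 0.0313). Clec4n (dectin-2), which signals through Fcer1g, read 2.08 and 5.77 FPKM in PlusDox and 0.261 and 1.37 FPKM in NoDox HE2 and was not called. Socs3, a feedback inhibitor of cytokine receptors, was higher at 32.2 and 23.2 FPKM against 11.3 and 13.2 FPKM (1.10 ± 0.25, adjusted p = 0.0246). Of the phagocyte list, Lgals3 (galectin-3) was higher at 8.58 and 7.19 FPKM against 1.39 and 2.24 FPKM (1.67 ± 0.33, adjusted p = 0.0124).

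**Figure D5:**
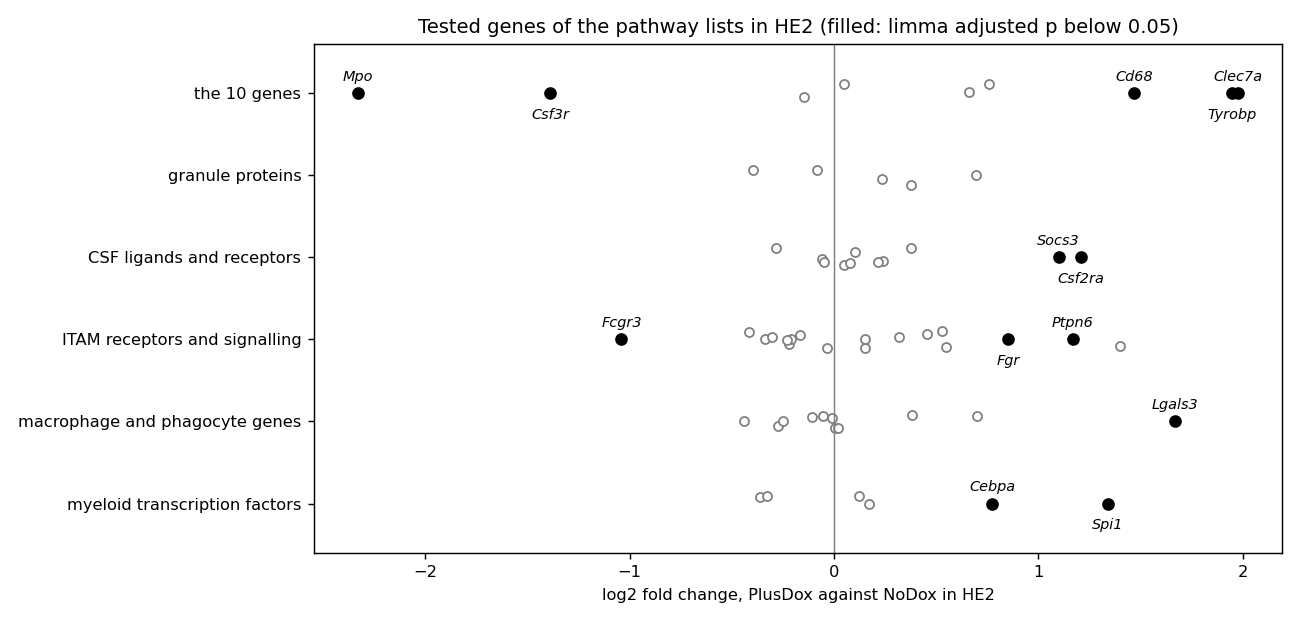
Each point is a tested gene of a list, placed by its log2 fold change, PlusDox against NoDox in HE2, and filled and named when called. Of the 10 genes, Mpo and Csf3r lie at −2.33 and −1.39 and Cd68, Tyrobp and Clec7a at 1.47 to 1.98 (Adgre1 is left out), while the called genes of the lists lie between 0.78 (Cebpa) and 1.67 (Lgals3) except Fcgr3 at −1.04.

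Along the populations, more genes of the lists were called. From HE1 to HE2, 12 of 18 ITAM list genes were higher and 0 lower in the PlusDox arm. In the NoDox arm 9 were higher and 0 lower. For granule genes 2 and 3 of 5 were higher, in the same order of arms, and for phagocyte genes 4 and 3 of 11. Of 6 myeloid transcription factors 4 and 3 were higher, and no gene of these lists was lower. Of 11 colony-stimulating factor list genes, 3 were higher and 0 lower in the PlusDox arm. In the NoDox arm 1 was higher and 1, Csf1, lower. Of all genes, 5.7% and 5.67% were higher and 2.89% and 4.45% lower in these arms. Spi1 was at 4.18 ± 0.27 in PlusDox and 3.89 ± 0.27 in NoDox cells (limma adjusted p = 1.25e-05 and 1.66e-05), larger than the fold of any of the 10 genes in the NoDox arm. From HE2 to HP the lists were counted over genes that reached 1 FPKM in 2 libraries outside HP. Of 13 such ITAM list genes 6 were higher in the PlusDox and 7 in the NoDox arm, led by Clec4n in both, where 5.96% and 5.31% of all genes were higher. Of 7 phagocyte genes 4 were higher in the PlusDox and 5 in the NoDox arm, among them the oxidase gene Ncf1, and 1, the mannose receptor Mrc1, was lower in each. Of 3 granule genes 3 were higher in the PlusDox and 2 in the NoDox arm. Of 5 myeloid transcription factors 1 was higher and 1, Klf4, lower in the PlusDox arm. In the NoDox arm 2 were higher and 2, Klf4 and Gfi1, lower. Of 11 colony-stimulating factor list genes 2 were higher and 2 lower in the PlusDox arm, and 3 and 3 in the NoDox arm. Of all genes, 10.9% and 10.6% were lower in these arms. The granule protease gene Prtn3 read 4.16 and 3.51 FPKM in PlusDox HP and 1.91 and 2.99 FPKM in NoDox HP, while Elane, the neutrophil elastase gene, was listed at 0 in 10 libraries and did not exceed 0.41 FPKM. Of the tested cytokine ligand and receptor genes, Csf1 was lower in HP than in HE2 in both arms (−1.59 ± 0.35 in PlusDox and −1.41 ± 0.35 in NoDox cells, adjusted p = 0.00738 and 0.0149), and Csf2 and Il3 were listed at 0 throughout.

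Markers of other cells moved with some of these results. The summed FPKM of 6 pan-leukocyte markers was 163 and 149 in PlusDox and 61.3 and 71.8 in NoDox HE2, with Ptprc, Coro1a and Spn called higher (3 of 6). Of all genes tested, 3.82% were called higher and 2.24% lower in HE2. In HE1 the leukocyte sums were 58.1 and 43.2 against 20.8 and 25.2 (1 of 6 called higher, Laptm5, with 0.961% of all genes). In HP they were 212 and 200 against 116 and 150 (1 of 6, Spn, with 0.601%). The 8 endothelial markers summed to 1660 and 1589 FPKM in PlusDox and 874 and 1309 FPKM in NoDox HE2, with 2 of 8 called higher (Egfl7, Esam). The 8 erythroid markers overlapped between the arms of HE2 (1499 and 2171 FPKM against 1474 and 1661 FPKM), with Alas2 called lower. The 6 megakaryocyte markers summed to 114 and 50.9 FPKM in PlusDox and 167 and 96.7 FPKM in NoDox HE2, with 0 of 5 tested called by limma and 0 at an unadjusted p below 0.05, and the 6 smooth muscle and mesenchyme markers to 49.4 and 95.3 FPKM against 56.9 and 91.8 FPKM, with Pdgfrb called lower. Of the 8 mast cell markers, 5 were at 0 in both libraries of PlusDox HE2 and 6 in NoDox HE2, the sum was at most 3.38 FPKM in any library, and Cpa3 was called lower in PlusDox HE2. The lymphoid list was at 0 for 4 of 8 genes in PlusDox HE2 and 5 of 8 in NoDox HE2 and summed to 9.98 and 6.58 FPKM against 1.49 and 2.11 FPKM, with Cd79b called higher. Of the lists other than the leukocyte one, Cdh5, Egfl7 and Cd79b were called higher and Alas2 lower in PlusDox HP, and none in PlusDox HE1. The part of a different mix of cells within the sorted populations in the results for the 10 genes was not tested.

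Over the 12 libraries, the genes most like each of the 10 were found by Pearson r of log2(FPKM + 1) among 9408 genes with a group mean of at least 5 FPKM, as a description only, since all libraries share the same 3 populations. Genes picked in this way resemble the gene they were picked for by selection, in their difference between the arms too. Mpo was nearest to Ptpn7 (0.993), Mrvi1 (0.992) and Kcnj5 (0.988), whose means were lower in PlusDox than in NoDox HE2, for Ptpn7 2.81 against 9.86 FPKM. Csf3r was nearest to Scamp2, Syngr1 and Adgrg3 (0.980 to 0.967), and Adgrg3 averaged 6.90 FPKM in PlusDox and 18.7 FPKM in NoDox HE2. Tyrobp was nearest to Sec11c, Pik3ap1 and Ccl9 (0.992 to 0.989), and Ccl9 averaged 21.7 FPKM in PlusDox and 7.52 FPKM in NoDox HE2. Clec7a was nearest to Spn, Kat2b and Cd53 (0.979 to 0.976) and Cd68 to Fam213a, Ssh3 and Fam83h (0.975 to 0.960), and Fam213a averaged 21.2 FPKM in PlusDox and 7.78 FPKM in NoDox HE2. Lyz2 lay beside Cd200r1, Was and Kcnj2 (0.994 to 0.988), Csf2rb beside Dhrs3, Mbp and Alox5 (0.987 to 0.981), Fcer1g beside Mamdc2, Ppip5k2 and Lrrc25 (0.993 to 0.989) and Csf1r beside Angpt1, Hbb-bt and Sla (0.996 to 0.986). For Adgre1 the nearest were Gp1bb, Treml1 and Pf4 (0.983 to 0.981), genes best known from platelets and megakaryocytes, and Pf4 averaged 35.9 FPKM in PlusDox and 27.5 FPKM in NoDox HP. Among the 10 genes, r was 0.94 between Mpo and Csf3r, 0.97 between Tyrobp and Fcer1g, 0.75 between Mpo and Tyrobp and −0.07 between Mpo and Cd68.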

How the data were processed

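RNA from sorted cells was made into stranded total RNA libraries and sequenced paired-end in 1 pool of 12, per the labels. Per the submitters' processing notes, Trimmomatic 0.32, HISAT2 2.1.0, StringTie 1.3.3 and mm10 were used, and no source used here names the annotation. The deposited values were read as FPKM made by the authors, inferred from the tool and from library sums that differ. Low values gave no common scale of depth (17 of 66 pairs of libraries within 0.1 log2). Repeated names were summed.

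limma 3.58.1 (R 4.3.3) was fitted to log2(FPKM + 1) of 13316 genes over 12 libraries, using 6 group means and a trend on intensity (6 residual and 5.83 prior degrees of freedom). Folds on this scale understate changes of low genes. P-values were two-sided and Benjamini-Hochberg adjusted over all genes in each comparison. They measure only the spread between biological replicates, 2 per group, pooled for each gene over the 6 groups and drawn toward the trend. On simulated data with 13316 genes, 2-fold changes were recovered at 46%, 50% and 45% and 4-fold changes at 91%, 92% and 95%. The runs, with changes placed in HE1, HE2 and HP in turn, gave 5, 8 and 10 false calls. All used the same mean and spread of each gene, so they do not describe these populations separately. Their noise was independent between libraries, without a replicate or Lars2 pattern. The changes were added on the log2(FPKM + 1) scale, and only to genes with a mean of at least 5 FPKM. The rates therefore do not apply to genes with lower means. The 10 genes, the lists and the tests were chosen with earlier results of these data known, so no pattern is independent evidence. Named list genes were the called ones with separated libraries and the largest folds, up to 4 per doxycycline comparison and 3 per step; Clec4n in HE2, genes listed at 0, near copies and called markers were named after their values were seen. Of the lists, 2 genes are not reported here and were left out of the list counts and sums. Python 3.11.15, numpy 2.4.6, pandas 2.3.3 and matplotlib 3.10.9 were used. Positions and promoters came from RefSeq GRCm38.p6, in which 32501 of 35976 names were found. Alternatives were a pseudocount of 0.1, no filter, 2 other scalings, a replicate block, a Lars2 class term, leaving out each library and, added after the data were seen, the 7 Lars2-low libraries alone.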

Additional observations from a re-analysis of the deposited data

How the results depend on the processing

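Of the 6 calls among the 10 genes with doxycycline, Mpo and Cd68 in HE2 were kept under every alternative but the 7 Lars2-low libraries alone, where 1 residual degree of freedom remains (Mpo −2.03, adjusted p = 0.114, and Cd68 1.64, adjusted p = 0.143). That setting left 0 of the 10 called in HE1 and HE2, 1 and 0 in the PlusDox steps to HE2 and HP and 2 in the NoDox step to HP, and 0, 7, 3, 11, 9, 53 and 369 genes in all, in HE1, HE2, HP, the PlusDox steps to HE2 and HP and the NoDox steps to HE2 and HP. With no filter on low values 3 of the 10 were called in HE2 and 4 in the PlusDox step to HP (5 with a pseudocount of 0.1), and 450 genes in HE2, 833 in the NoDox step to HE2 and 6 for the HP minus HE2 difference. A pseudocount of 0.1 gave 97 genes in HE1 and 0 and 1 for the differences. Median scaling called 1 of the 10 in HP and 313, 1629 and 173 genes with doxycycline, 1 for the HE2 minus HE1 difference, and 2001 (778 higher) and 2089 (709 higher) at the PlusDox and NoDox steps to HE2. Quantile normalization called 1 of the 10 in HP and 351 genes in HE1, 1824 in HE2 (941 higher, against 509 of 807 in the fit as reported), 10 for the HE2 minus HE1 difference, 2048 (979 higher) and 2122 (914 higher) at the PlusDox and NoDox steps to HE2, against 759 of 1144 and 755 of 1348, and 3394 (1690 higher) and 2775 (1328 higher) at the PlusDox and NoDox steps to HP, against 794 of 2251 and 707 of 2125. The Lars2 class term called 1 of the 10 in HP and 1254, 175, 1, 0 and 2354 genes in HE2, HP, the 2 differences and the PlusDox step to HE2.

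The fit as reported did not treat the replicate numbers as pairs. Between groups, r of the replicate differences ran from −0.1 to 0.526, so some groups shared part of these differences. The labels tie the numbers to nothing, and a batch behind them was not tested. With the replicate block, 3 of the 10 were called in HP (Mpo −0.92, adjusted p = 0.0336, Cd68 0.81, 0.028, Clec7a 1.35, 0.0339), Csf1r was called in HE2 (0.76, 0.023), and 1 of the 10, Mpo, for the HE2 minus HE1 difference (−1.61, 0.0321). The block called 459, 2296 and 305 genes with doxycycline, 47 and 5 for the differences, 2420 and 3126 at the PlusDox and NoDox steps to HE2 and 3388 at the PlusDox step to HP.

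Leaving out 1 library at a time gave 0 to 1 of the 10 in HE1, 3 to 6 in HE2, 4 to 9 and 3 to 6 at the PlusDox and NoDox steps to HP and 5 to 8 at the PlusDox step to HE2, and the counts for HP against HE2 include Adgre1 here. The counts of all genes were 2 to 191, 172 to 877 and 10 to 124 with doxycycline, 0 to 4 and 0 to 5 for the differences, 393 to 1137 and 262 to 1424 at the PlusDox and NoDox steps to HE2 and 1307 to 2331 and 1184 to 2195 at the PlusDox and NoDox steps to HP. Signs turned only for folds that were not called, in HE1 Csf1r (−0.06 to 0, 0.02 under quantile normalization and 0.03 in the Lars2-low libraries), Csf2rb (−0.84 to 0.19, Lars2-low 0.34) and Tyrobp (−0.28 to 0.48), in HE2 Csf2rb (−0.49 to 0.59), Lyz2 (−0.31 to 0.02) and Fcer1g (−0.06 to 1.39), in HP Csf2rb (−0.48 to 0.3) and Adgre1 (−0.13 to 0.46), for HE2 minus HE1 Csf2rb (−0.16 to 0.91) and Lyz2 (Lars2-low −0.05), and for HP minus HE2 Csf1r (−0.44 to 0.1), Csf2rb (−0.68 to 0.4) and Fcer1g (−1.1 to 0.35).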
